A study of Rattus norvegicus with 9 samples.

Results

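Cultured cardiac fibroblasts (CFs) of neonatal rats that received angiotensin II (AngII) were compared with untreated CFs, after the few entries that fill these libraries had been set aside. CFs make the collagen scaffold of the heart, and AngII is a peptide hormone used to activate them. Of the 9 RNA-seq libraries of the series, 6 were used, with 3 of untreated cells (blank group) and 3 of cells given AngII at 0.1 µM for 72 h (AngII group), while the 3 libraries of the group that also received vericiguat were not compared here. The cells were plated from digested hearts, enriched by differential adherence and used at an early passage, so both groups share this enrichment. Which other cells it left in each group was not measured.

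The table gives FPKM, in which the fragments of a gene are divided by its length and by the size of the library. The 13 entries named KEF51_p01 to KEF51_p13 and the entry ADORA1-2 were left out, each library was rescaled to a sum of 1000000, and a gene was kept if its deposited FPKM reached 1 in at least 2 of the 6 libraries. This kept 1587 of 22512 entries, of which 254 carry a gene symbol and 1333 only a LOC number. Exactly at the limit, with 2 such libraries, were 514 of the kept genes (66 of them with a symbol), and 951 entries (87 with a symbol) missed it with 1 library. Values below are rescaled FPKM, given in the order of replicates 1, 2 and 3. FPKM is per length, so gene length is allowed for when genes are compared. Such comparisons also depend on how well each gene collects reads, which was not tested. Differences are log2(rescaled value + 10), AngII minus blank, which understates the change of low genes. A gene was called higher (rose) or lower (fell) at an adjusted p below 0.05 and a log2 difference of at least 1, by limma with Benjamini-Hochberg adjustment over all 1587 genes.

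AngII acts on fibroblasts mainly through its type 1 receptor, and is known for driving them towards myofibroblasts, which carry smooth muscle actin (ACTA2) and secrete matrix. TGF-β1, connective tissue growth factor (CCN2) and the metalloproteinase inhibitor TIMP1 are classic components of that response. Mitochondrial ATP synthase, the respiratory chain and the carriers that feed them are abundant in cardiac muscle cells, as are the cardiac myosin heavy chains MYH6 and MYH7 and the calcium proteins of the sarcoplasmic reticulum.

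After the 14 entries were set aside, little of each library was left, 0.842, 0.218 and 0.497% of the summed FPKM in the blank libraries and 0.579, 0.630 and 0.948% in the AngII libraries. Blank 2 had the least and was multiplied by 277 in rescaling, against 65.5 to 129 for the other libraries, and 211 of the kept genes are listed at 0 in it, against 24 to 59 elsewhere. The single entry LOC100353654 held 50.2% of what remained of blank 2 and 9.19 to 27.4% of the others. Spearman correlations over the 1587 genes, given as a description since genes are not replicates, were 0.941 between blank 1 and blank 3 and 0.814 between AngII 1 and AngII 3. Blank 2 stood at 0.662 and 0.730 with its group, AngII 2 at 0.552 and 0.625 with its own, and pairs of libraries from different groups at 0.153 to 0.397. Blank 2 and AngII 2 therefore stand apart, and counts are also given without both, a choice made after the data were seen. Nothing in the labels says whether replicates are separate animals or cultures, so the p-values measure only the spread between these libraries, which may be technical.

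**Figure D1:**
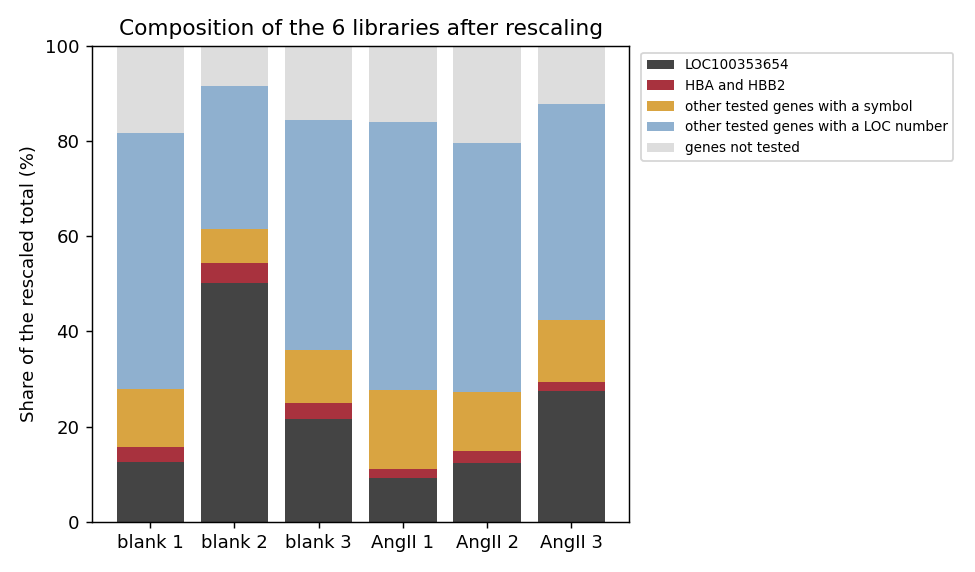
Share (%) of each library's FPKM, after the KEF51 entries and ADORA1-2 were left out, held by the groups of entries in the legend, for the 3 blank and 3 AngII libraries. LOC100353654 takes 50.2% of blank 2, and HBA with HBB2 takes 3.19 to 4.26% of the blank and 1.93 to 2.54% of the AngII libraries.

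The organism label is rat, but the submitters' processing notes name the rabbit assembly OryCun2.0. Of the 254 symbols, 227 equal a rat symbol in the GRCr8 gene table when case is ignored, and none of the LOC numbers is a rat gene ID there. Which genes collect reads could depend on that choice, and its part in the results was not tested. Fragment numbers were small where they could be read. For 112 of the 247 kept symbols with usable steps, FPKM could be read as whole fragments (within 0.1 of a whole number, at most 100). Their medians were 13, 2 and 9 in the blank and 12, 8 and 12 in the AngII libraries. The lowest library above 0 was allowed at most 5 fragments, and the smallest fitting number was taken, so these readings can be too low. Fragment numbers of the remaining symbols were not read. Relative depth, read from the most frequent ratio of low FPKM values, was 1.15, 1.34 and 1.27 in the blank libraries and 1, 0.797 and 0.822 in the AngII libraries.

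The cell type label was checked against its markers. Of 14 fibroblast markers, 4 are listed by symbol, and their sum was 1980.1, 471 and 1628 in the blank and 2437, 616 and 1260 in the AngII libraries. Decorin (DCN), a matrix proteoglycan, made up most of it at 1171, 335 and 1082 against 1255, 434 and 872, with a log2 difference of 0.05 ± 0.60 (SE). COL1A1, COL3A1, PDGFRA and VIM are not listed by symbol, so the label can be checked only in part. The 6 listed cardiomyocyte markers summed to 603, 1882 and 1170 in the blank and 4260, 9477 and 3383 in the AngII libraries, so the groups do not overlap and the AngII libraries hold more. Of these, NPPA is listed at 0 in 5 libraries and at 15.0 in AngII 3, and RYR2 and TTN stayed under the FPKM limit. The red cell genes HBA and HBB2 held 31882, 42571 and 32344 against 19324, 25439 and 20308, above the fibroblast sum in every library. Endothelial markers summed to 14.9 to 31.9 in the blank and 7.86 to 36.6 in the AngII group, and CD14, the single listed macrophage marker, to 41.8 to 91.1 against 0 to 19.1. In bulk RNA, fewer cells of a type and less RNA per cell cannot be told apart.

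In AngII libraries 9 tested ATP synthase subunits, the ADP/ATP carrier SLC25A4, the cardiac myosins MYH6 and MYH7 and the muscle enolase ENO3 were higher, and the chemokines GRO-A and CCL2, the smooth muscle genes ACTA2 and MYH11, TIMP1 and CCN2 were lower. Of the 254 genes with a symbol, 59 were called, 40 higher and 19 lower, that is 23.2% of them with 15.7% higher and 7.48% lower. Over all 1587 genes 359 were called (22.6%), 227 higher (14.3%) and 132 lower (8.32%), so the share among symbols is near that background. Of the called symbols, 25 of the 40 rises and 10 of the 19 falls reached the FPKM limit only in libraries of the group where they were high. Such genes had to differ to be tested at all, so their calls are a description. Among those named below, this holds for ATP5MC2, ATP5MG, SLC25A4, MICOS10, CKMT2, DBI, VDAC1, CUNH19orf12, MYH6, SRL, HRC, TRDN, CASQ2, SLC2A4, PYGM, BSP1, VBP1, H3-3A, HMGB1, UBE2B, STMP1, DHRS4, ROMO1, SLC12A7 and ST3GAL4, and for the falls GRO-A, CCL2, SELP, IL18BP, C1H11orf96, TIMP1, CCN2, MYH11, PLAT and RA_M006_JSM7BED4F. At an unadjusted p below 0.05 the calls were 614 (38.7%), 386 higher (24.3%) and 228 lower (14.4%), with 104 (40.9%) among the symbols. The median log2 difference was 0.35 over all genes and 0.60 over the symbols.

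The balance of higher and lower calls moved with scaling. Higher calls were 63.2% of all calls here, 83.5% without rescaling, 50.5% with median-ratio scaling, 46.4% with quantile normalization, 46.2% on ranks and 49.5% with LOC100353654 also left out. The median over all genes moved with it, from 0.55 without rescaling to 0.17 with median-ratio scaling and 0.06 with quantile normalization. No called gene with a symbol changed sign in any of 24 alternatives. Those that change only the filter, block, variance model, threshold or the added vericiguat libraries leave each log2 difference as it was, so no sign could change there. Counts also leaned on single libraries. Without blank 1, blank 3, AngII 1 or AngII 3 the calls dropped to 233, 202, 189 and 191, and lower calls to 50, 49, 71 and 59, while without blank 2 lower calls came to 232. Without both blank 2 and AngII 2 there were 817 calls, 392 higher and 425 lower, with 145 among the symbols. Of the 59 called symbols, 26 kept the call without each library in turn, and 33 lost it at least once.

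**Figure D2:**
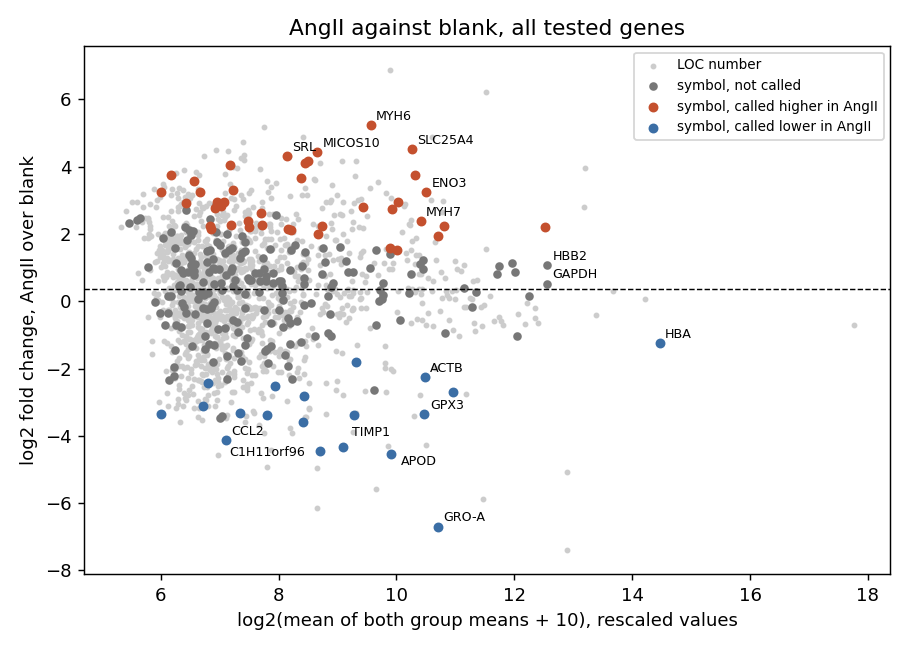
Log2 difference (AngII minus blank, rescaled FPKM + 10) against the mean level of each of the 1587 tested genes, with the called symbols in colour, 16 genes named and the median as a dashed line. Among the symbols, MYH6 lies highest at 5.23 and GRO-A lowest at -6.70.

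The ATP synthase list gave more higher calls than any other of the 19 lists. This enzyme of the inner mitochondrial membrane makes ATP from the proton gradient. Of 15 tested members of the list, 9 rose (60.0%, against 14.3% of all genes) and none fell. In 11 of the 15 the AngII values all lay above the blank values (73.3%, against 28.4% of all genes). The median log2 difference of the list was 2.06 against 0.35 over all genes. The summed level of the 17 listed members was 8521, 10677 and 9161 in the blank and 25312, 17013 and 21341 in the AngII libraries, without overlap.

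The proton-carrying c subunit is encoded by 3 genes, all of which rose. ATP5MC1 went from 110.3, 548 and 161 to 2006, 1133 and 2220.1, a log2 difference of 2.93 ± 0.61 (SE, limma adjusted p = 0.00714). ATP5MC2 stood at 11.9, 71.1 and 52.5 in the blank and 684, 618 and 493 in the AngII libraries (3.65 ± 0.62, adjusted p = 0.00262). These ATP5MC2 values come from 1, 2 and 3 fragments against 42, 33 and 36, so every blank library was low and every AngII library high. ATP5MC3 was listed at 141, 0 and 15.9 and then at 929.8, 322 and 620.4 (4.10 ± 0.88, adjusted p = 0.00824), and it missed the threshold without AngII 1 (adjusted p = 0.0559).

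The stalk and membrane subunits were also among the calls. ATP5PO, which joins the stalk to the catalytic head, had the smallest standard error of the called subunits, at 219, 286 and 220.3 in the blank and 1624, 1588 and 1820.3 in the AngII libraries (2.75 ± 0.45, adjusted p = 0.00222). ATP5MG, a small membrane subunit, stood at 0, 100.4 and 24.7 against 803, 290.2 and 888 (4.16 ± 0.84, adjusted p = 0.00576), from 0, 2 and 1 fragments against 35, 11 and 46. Both genes had no overlap between groups. ATP5PB (148, 66.1 and 86.6 against 646, 499 and 271) and the catalytic-head subunit ATP5F1A (138, 55.0 and 87.6 against 590.4, 238 and 539) rose by 2.11 ± 0.57 and 2.15 ± 0.59. Without blank 3 or AngII 1 both lost the call, at adjusted p from 0.0671 to 0.101, and ATP5F1A also without AngII 3 (0.0913). ATP5MJ rose by 1.57 ± 0.51 and ATP5F1E by 1.52 ± 0.51, and these were the least stable, since ATP5MJ lost the call without any one library (adjusted p 0.0573 to 0.109) and ATP5F1E without each except blank 2 (0.0629 to 0.187).

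Uncalled members of the list did not all point the same way. ATP5ME, the most abundant one, stood at 2458, 2580.3 and 2399 in the blank and 5402, 5709.7 and 5220.0 in the AngII libraries, with no overlap and an adjusted p of 0.0522. ATP5IF1, the inhibitor of the enzyme's reverse reaction, was 2365, 2520.2 and 2622 against 3779, 1245 and 2344, with overlapping groups and a log2 difference of -0.17 ± 0.48. ATP5F1C also overlapped, at 449.8, 1230.1 and 779 against 2638, 588 and 1522. The count of higher calls in the list was 8 under median-ratio scaling, quantile normalization and ranks, 6 with a pseudocount of 1, 5 with only the KEF51 entries left out or the filter on rescaled values, 3 with no filter, and 11 without blank 2 and AngII 2. In the same order, higher calls over all genes numbered 207, 207, 215, 151, 118, 180 (of 11491 tested), 111 (of 14158 tested) and 392. The list gave 4 without AngII 1, 5 without blank 3 and 6 without AngII 3, beside 118, 153 and 132 over all genes.

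Few genes of the respiratory chain are listed by symbol, 5 of 67, and 2 of these 5 rose (40%, against 14.3% of all genes). UQCRQ, a subunit of complex III, rose from 771, 356 and 811 to 2992, 3405 and 2391 (2.24 ± 0.47, adjusted p = 0.0077). COX4I1, a subunit of cytochrome oxidase, rose from 680.0, 614 and 683 to 2157, 3794 and 2068 (1.95 ± 0.45, adjusted p = 0.0116). In both genes the lowest AngII value was well above the highest blank value. The complex II subunits SDHA (53.1, 31.5 and 77.7 against 188, 466 and 126) and SDHB (132, 0 and 163 against 469.9, 461 and 209) had no overlap but missed the threshold, at adjusted p = 0.0517 and 0.0676. Neither these nor IDH3G gave a call in the citrate cycle list, with 0 of 3 tested genes at the adjusted threshold (14.3% of all genes were called higher). At an unadjusted p below 0.05 the list gave 2 of 3 higher, where 24.3% of all genes were.

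SLC25A4, MICOS10, CKMT2, DBI, VDAC1 and CUNH19orf12 belong to none of the lists, and were grouped here after their values were seen. Each reached the FPKM limit only in AngII libraries, so these calls are a description. SLC25A4 carries ADP into and ATP out of the mitochondrion, and went from 37.7, 225 and 82.8 in the blank to 2636, 2025 and 2270.0 in the AngII libraries (4.51 ± 0.60, adjusted p = 0.000947). MICOS10, which shapes the cristae, went from 47.7, 0 and 46.5 to 520.1, 1270.4 and 474 (4.43 ± 0.76, adjusted p = 0.00269), or from 3, 0 and 2 fragments to 24, 51 and 26. In both genes the AngII values all lay above the blank values, and the call was kept without each library in turn. CKMT2, the mitochondrial creatine kinase of striated muscle, is listed at 0 in all blank libraries and at 118, 126 and 128 in the AngII libraries (adjusted p = 0.00427). DBI, which binds acyl-CoA, stood at 0, 0 and 24.5 against 206, 421 and 154 (4.04 ± 0.75, adjusted p = 0.00402), that is 0, 0 and 1 fragments against 9, 16 and 8. VDAC1, the channel of the outer membrane, rose from 48.4, 43.4 and 49.6 to 251, 357 and 261 (2.37 ± 0.55, adjusted p = 0.0126). CUNH19orf12, for which no role is given, stood at 15.8, 0 and 0 against 108, 261 and 127 (3.58 ± 0.75, adjusted p = 0.00737).

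A cardiac myosin showed the largest rise of the symbols, and here AngII 2 was far above the other libraries. MYH6, the alpha myosin heavy chain, stood at 16.1, 4.43 and 6.46 in the blank and at 254, 3897 and 306 in the AngII libraries (5.23 ± 0.92, adjusted p = 0.00287). MYH7, the beta chain, stood at 319, 383 and 317 against 889, 4836 and 1352 (2.38 ± 0.60, adjusted p = 0.0176). Both kept the call without each library in turn, AngII 2 included, but MYH7 lost it under quantile normalization, on ranks, with only the KEF51 entries left out, with the filter on rescaled values and with no filter. PLN, the phosphoprotein that inhibits the calcium pump, was 264, 1482 and 841 against 3091, 657 and 1691, with overlapping groups and no call. These 3 are the tested cardiomyocyte markers, so 2 of 3 rose (66.7%, against 14.3% of all genes), and 1 of 3 under those 5 alternatives. Higher calls over all genes there numbered 207, 215, 118, 180 (of 11491 tested) and 111 (of 14158 tested), in the order given. MYH6 and MYH7 are by definition part of the marker sum that was higher in the AngII libraries.

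Some called rises were in genes of the sarcoplasmic reticulum, the calcium store of muscle, and are described together after their values were seen. These genes form none of the lists, so no share of them can be set against the 14.3% of all genes called higher. The calcium pump of the reticulum, ATP2A2, was not called, at 92.9, 39.6 and 80.1 in the blank and 195, 442 and 85.6 in the AngII libraries (1.42 ± 0.69, adjusted p = 0.147), nor was PLN. Sarcalumenin (SRL) went from 3.69, 39.0 and 5.43 to 203, 1031 and 352 (4.31 ± 0.77, adjusted p = 0.00294), and the histidine-rich calcium binding protein HRC from 25.0, 18.5 and 4.52 to 132, 460.5 and 201 (3.31 ± 0.70, adjusted p = 0.0077). In both, AngII 2 was again the highest. Triadin (TRDN) went from 23.1, 17.2 and 16.9 to 118, 184 and 307 (2.78 ± 0.64, adjusted p = 0.012), with AngII 3 the highest, and lost the call without that library (adjusted p = 0.0622). Calsequestrin (CASQ2) stood at 35.1, 42.0 and 20.5 against 182, 220.3 and 133 (2.15 ± 0.61, adjusted p = 0.0249), on 10, 4 and 4 fragments against 38, 40 and 33. Its call was lost without blank 1, blank 3, AngII 1 or AngII 3, at adjusted p from 0.0632 to 0.133.

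Muscle-type genes of sugar metabolism were among the rises. ENO3, the muscle enolase, rose from 202, 256 and 314 to 2123, 3938 and 1834 (3.24 ± 0.48, adjusted p = 0.00162). SLC2A4, the insulin-regulated glucose transporter, rose from 0, 11.3 and 5.56 to 66.6, 377 and 86.2 (3.25 ± 0.81, adjusted p = 0.0171). ENO3 and SLC2A4 were the 2 higher calls among 7 tested genes of the glycolysis list (28.6%, against 14.3% of all genes), whose median log2 difference was 0.86. LDHB just missed the threshold at 354, 779 and 446 against 1398, 1461 and 1168 (adjusted p = 0.0509), and PKM, the pyruvate kinase, was lower in rank without overlap and uncalled, at 932, 276 and 677 against 239, 523 and 148 (-1.05 ± 0.62). GAPDH, often used as a reference gene, stood at 5243, 4616 and 4847 against 5939, 7683 and 7586 (0.52 ± 0.38, adjusted p = 0.338). ANKRD1, a stress-responsive ankyrin repeat protein of cardiac muscle, rose from 261, 95.7 and 154 to 1507, 877 and 1209 (2.81 ± 0.53, adjusted p = 0.00402). For the mitochondrial, muscle and glucose genes alike, the cardiomyocyte marker sum moved with the group, as given above, and its part in these results was not tested.

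**Figure D3:**
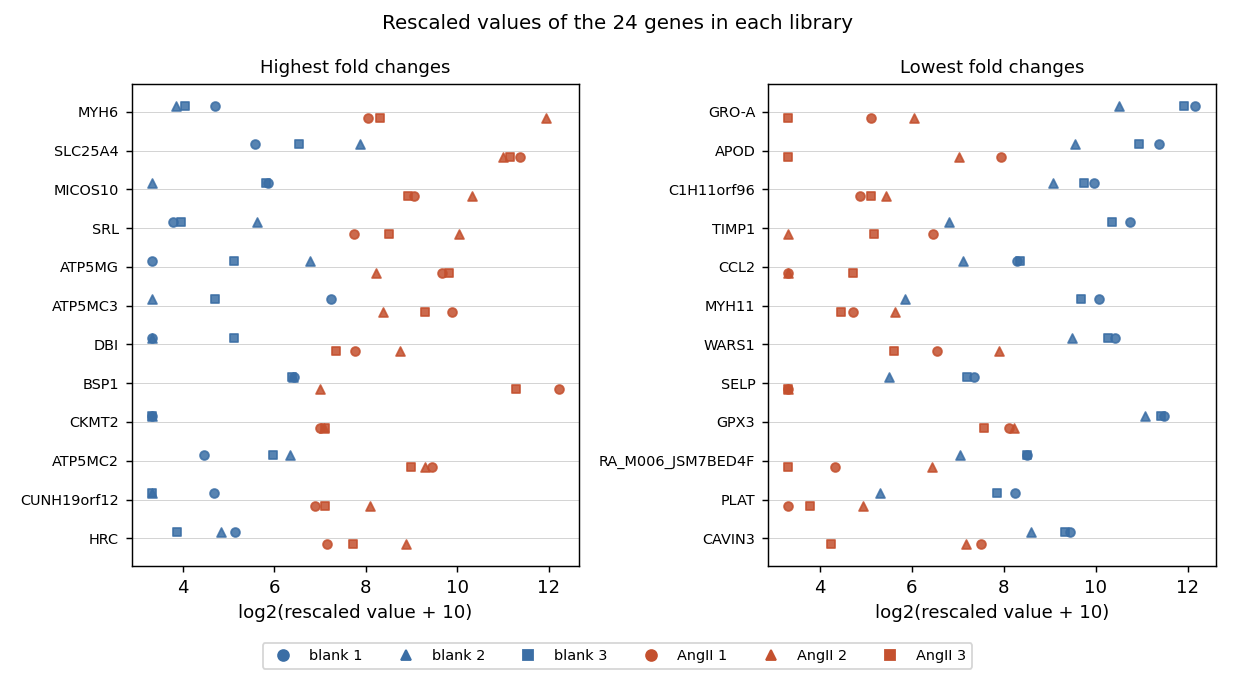
Values as log2(rescaled FPKM + 10) of the 12 symbols with the highest and the 12 with the lowest log2 difference among those without overlap, 1 point per library. Each row shows the AngII points on one side of the blank points, with AngII 2 far to the right for MYH6 and SRL and the points of blank 2 lowest in most genes that fell.

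Among genes of translation, EEF1A1, the elongation factor that brings aminoacyl-tRNA to the ribosome, stood at 2287, 832 and 2093 in the blank and 16144, 2039.5 and 11773 in the AngII libraries. It was called higher (2.19 ± 0.71, adjusted p = 0.0417) although AngII 2 lay within the blank range. The call was lost without blank 2, AngII 1 or AngII 3, at adjusted p from 0.12 to 0.188. EEF1A2, its muscle and nerve paralogue, was 181, 149.9 and 191 against 391, 662 and 472, with no overlap and an adjusted p of 0.0524. Paralogues as close as these could share reads, and how such reads were counted is not given in the sources used here. EEF1A1 was the only call among 9 tested translation factors and chaperones (11.1%, against 14.3% of all genes called higher).

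Among 8 tested ribosomal proteins, none was called higher (14.3% of all genes were) and RPL18 was called lower (12.5%, against 8.32% of all genes). RPL18 fell from 1080.1, 825 and 1003 to 377, 145 and 347 (-1.81 ± 0.52, adjusted p = 0.0258), a call lost without blank 1, blank 3 or AngII 3 (adjusted p 0.0516 to 0.103). Most others had higher values in AngII 1 and AngII 3 than in AngII 2. RPL5 stood at 245, 235 and 218 against 1183, 371 and 864 (adjusted p = 0.0517), and RPL4 at 41.3, 0 and 34.5 against 346, 55.4 and 149 (adjusted p = 0.0558). RPS20 was among the most abundant at 5949, 2836 and 4960.0 against 7549, 3991 and 3727, and its log2 difference of 0.14 changed sign with the scaling, to -0.083 under median-ratio scaling. The list summed to 13057, 6711 and 11094 in the blank and 21771, 8915 and 14543 in the AngII libraries.

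BSP1 was also uneven among the AngII libraries. It stood at 75.5, 75.2 and 73.6 in the blank and at 4738, 118 and 2483 in the AngII libraries (3.76 ± 1.03, adjusted p = 0.0224). AngII 2 was close to the blank level, and without blank 2, AngII 1 or AngII 3 the call was lost (adjusted p 0.0514 to 0.131). VBP1, a subunit of the prefoldin chaperone, is listed at 0 in all blank libraries and at 183, 23.3 and 119 in the AngII libraries, which is 9, 1 and 7 fragments. The histone H3-3A stood at 7.86, 0 and 11.5 against 214, 24.7 and 198. These genes were called higher, but VBP1 lost the call without 4 of the 6 libraries (adjusted p 0.0526 to 0.0712) and H3-3A without 5 of them (0.052 to 0.123).

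Other rises were in genes of varied roles. PYGM, the muscle glycogen phosphorylase, stood at 37.2, 0 and 36.3 against 110.0, 369.7 and 167. HMGB1, a chromatin protein, stood at 32.4, 32.1 and 21.1 against 260.2, 141 and 136, and UBE2B, a ubiquitin-conjugating enzyme, at 42.2, 25.2 and 49.4 against 357, 146 and 203. Their log2 differences were 2.84 ± 0.79, 2.25 ± 0.62 and 2.27 ± 0.62, without overlap between groups. STMP1, DHRS4, ROMO1, SLC12A7, ST3GAL4 and SELENOP rose by 1.98 (SELENOP) to 2.95 (STMP1). These 9 genes each lost the call without at least 1 library, SLC12A7 (adjusted p = 0.0509) without AngII 3 alone. PYGM and ST3GAL4 lost it without any AngII library (0.05 to 0.0724), STMP1 without AngII 1 or AngII 3 (0.109 and 0.0817), and UBE2B without these or blank 3 (0.0552 to 0.107). HMGB1 and ROMO1 lost it without AngII 1, AngII 3, blank 1 or blank 3 (0.0541 to 0.178), SELENOP without AngII 1, AngII 3, blank 1 or blank 2 (0.0658 to 0.189), and DHRS4 without every library except blank 2 (0.0611 to 0.0941).

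A chemokine gave the largest fall of the symbols. GRO-A, listed under a name of a neutrophil-attracting CXC chemokine, stood at 4578, 1452 and 3865 in the blank and 24.6, 56.5 and 0 in the AngII libraries (-6.70 ± 0.73, adjusted p = 0.000243). CCL2, which attracts monocytes, stood at 304, 129 and 318 against 0, 0 and 16.6 (-4.13 ± 0.73, adjusted p = 0.00287), from 21, 3 and 15 fragments against 0, 0 and 1. Both kept the call without each library in turn. IL6 is listed at 336, 0 and 378 in the blank and at 0 in all AngII libraries, and was not called (adjusted p = 0.0585). So 2 of 3 tested genes of the cytokine list fell (66.7%, against 8.32% of all genes), with a median log2 difference of -4.13. All 3 reached the FPKM limit only in blank libraries, so this share is a description. The 20 listed members of the list summed to 5500, 1649 and 4869 against 168, 160 and 129, and GRO-A alone made up most of this sum in the blank libraries.

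SELP and IL18BP, which also act in inflammation, were grouped here after their values were seen. SELP, the adhesion molecule P-selectin, is listed at 153, 35.7 and 136 in the blank (64, 5 and 39 fragments) and at 0 in all AngII libraries (adjusted p = 0.0139). IL18BP, which binds and neutralises interleukin-18, stood at 227, 108 and 199 against 24.8, 42.7 and 10.4 (-2.43 ± 0.66, adjusted p = 0.0221), from 25, 4 and 15 fragments against 2, 3 and 1. SELP lost the call without blank 1 or blank 3 (adjusted p = 0.125 and 0.163), and IL18BP without any of these or AngII 1 or AngII 3 (0.0672 to 0.114). The acute-phase gene SAA3 is listed at 507, 0 and 219.8 against 0 in all AngII libraries and was not called (adjusted p = 0.062). The macrophage marker CD14, given above, was also lower in every AngII library, and its part in these values was not tested.

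Of the 7 tested matrix and 4 tested TGF-β genes none was called higher in the AngII group, where 14.3% of all genes were, and lists this short allow no reading of that. TIMP1 stood at 1714, 102 and 1304 in the blank and 78.0, 0 and 26.2 in the AngII libraries (-4.32 ± 1.03, adjusted p = 0.0138), a fall whose call was lost without AngII 2 (adjusted p = 0.0685). CCN2 fell from 625, 98.2 and 535 to 64.8, 51.6 and 33.5 (-2.51 ± 0.72, adjusted p = 0.0264), and lost the call without every library except blank 2 (adjusted p 0.0629 to 0.105). Blank 2 lay far below the other blank libraries in both genes, though still above all AngII libraries. These were the 2 calls among 7 tested matrix genes (28.6%, against 8.32% of all genes called lower), whose median log2 difference was 0.05. TIMP1 and CCN2 reached the FPKM limit only in blank libraries, so this share is a description. COL1A2, a chain of type I collagen, stood at 55.9, 16.6 and 57.4 against 486, 26.3 and 115 (1.42 ± 0.90, adjusted p = 0.264), and LUM at 635, 113 and 381 against 659, 156 and 244.

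TGFB1 itself was low, at 102, 57.3 and 131 in the blank and 8.71, 90.1 and 0 in the AngII libraries, with overlapping groups (-1.94 ± 0.88, adjusted p = 0.126). In the TGF-β list, 1 of 4 tested genes (CCN2) fell (25%, against 8.32% of all genes) and none rose. CCN2 reached the FPKM limit only in blank libraries, so this share is a description too. FN1 and PRKG1, the kinase activated by cGMP, did not reach the FPKM limit, with FN1 at 118, 6.36 and 107 against 37.1, 0 and 27.6. None of the 14 listed genes of the angiotensin and cGMP list was tested, the receptor gene AGTR1 among them. Their sum was 128, 133 and 145 in the blank and 166, 100.1 and 69.9 in the AngII libraries.

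The smooth muscle genes ACTA2 and MYH11 and the actin gene ACTB fell. ACTA2 stood at 624, 58.1 and 495 in the blank and 97.6, 0 and 7.46 in the AngII libraries (-3.39 ± 1.02, adjusted p = 0.0314), on 96, 3 and 52 fragments against 11, 0 and 1. AngII 1 lay above blank 2, so the rescaled values overlap, and the call was lost without blank 1, blank 3, AngII 2 or AngII 3 (adjusted p 0.0652 to 0.126). MYH11, the smooth muscle myosin heavy chain, stood at 1069, 47.6 and 808 against 16.3, 39.5 and 12.2 (-3.59 ± 0.97, adjusted p = 0.0217), with blank 2 close to AngII 2. It lost the call without blank 1 or any AngII library (0.0564 to 0.0909). ACTB, the cytoplasmic actin, stood at 3447, 849.8 and 2876 against 507, 613 and 232 (-2.26 ± 0.61, adjusted p = 0.0212), and lost the call without blank 1, blank 3, AngII 1 or AngII 3 (0.0564 to 0.0884).

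These were the 3 falls among 7 tested actin and contractile genes (42.9%, against 8.32% of all genes), with no rise and a median of -2.26. The number of falls was 4 under median-ratio scaling, quantile normalization and ranks, and 4 without blank 2 and AngII 2. Lower calls over all genes there numbered 203, 239, 250 and 425, against 132 in the main fit. The list gave 0 falls without blank 1 or AngII 3, where all genes gave 50 and 59. It gave 1 without blank 3, AngII 1 or AngII 2, where all genes gave 49, 71 and 165. TPM2, a tropomyosin, stood at 853, 60.6 and 624 against 104, 31.9 and 58.2 (adjusted p = 0.0719). Another tropomyosin, TPM1, was 549, 212 and 492 against 804, 619.7 and 744, and desmin (DES) 330, 149 and 301 against 332, 459 and 429, both without overlap, higher in the AngII libraries, and uncalled. The 3 listed smooth muscle and pericyte markers (MYH11, ACTA2 and DES) summed to 2023, 254 and 1605 in the blank and 446, 499 and 449 in the AngII libraries, and the part of such cells in these falls was not tested.

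**Figure D4:**
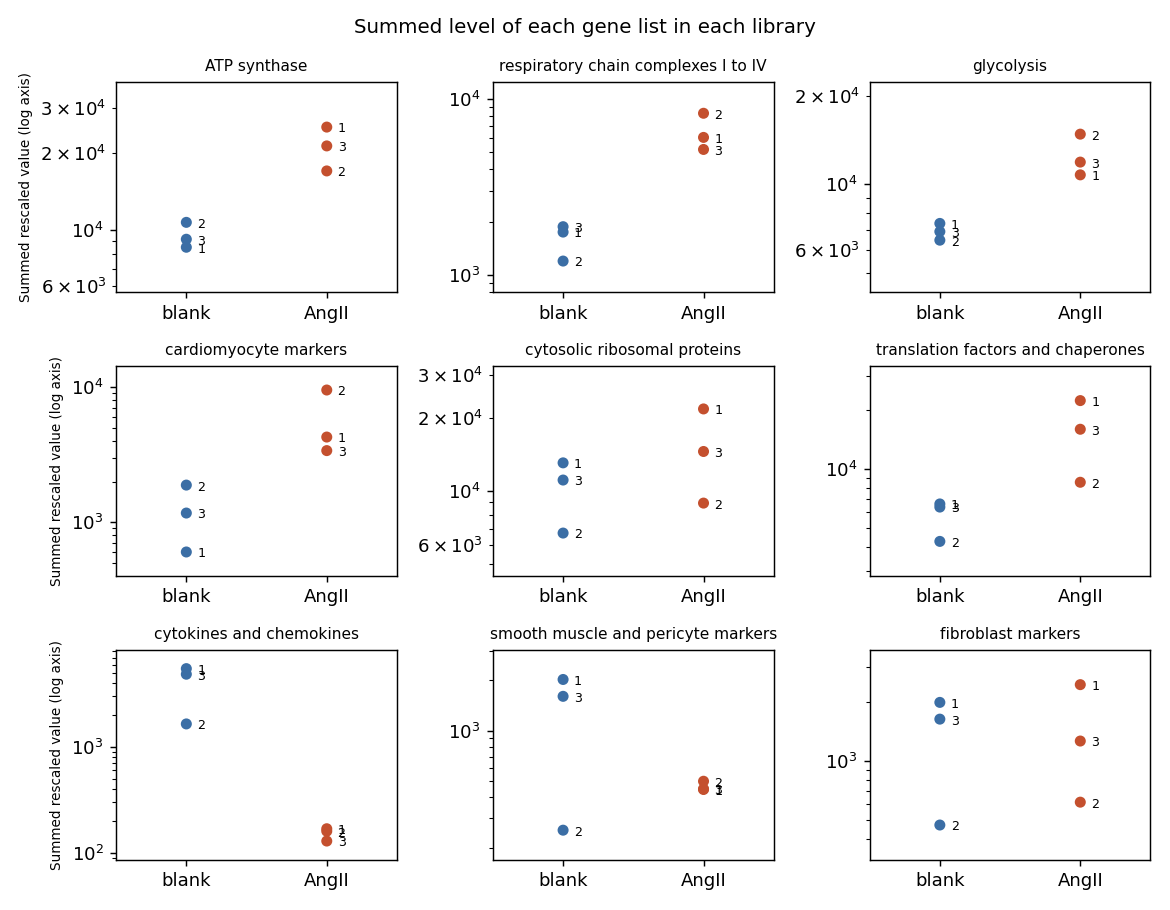
Summed rescaled FPKM (log axis) of the listed members of 9 gene lists, 1 point per library. The ATP synthase and cardiomyocyte sums are higher in all AngII than in all blank libraries, the cytokine sums lower, and the fibroblast and ribosomal sums overlap.

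Secreted and metabolic genes completed the falls. APOD, an apolipoprotein that carries small lipids, stood at 2663, 745 and 1969.9 in the blank and 236, 121 and 0 in the AngII libraries (-4.53 ± 0.99, adjusted p = 0.00861). GPX3, the secreted glutathione peroxidase, stood at 2855, 2137 and 2753 against 266, 289 and 181 (-3.36 ± 0.45, adjusted p = 0.000963), with blank 2 close to its group. WARS1, which charges tRNA with tryptophan, stood at 1353, 712 and 1233 against 83.7, 229.8 and 39.1 (-3.37 ± 0.63, adjusted p = 0.00402). All 3 genes were separate between groups by a wide margin and kept the call without each library in turn. C1H11orf96, the single tested member of the early response list, stood at 989, 531 and 843 against 19.4, 33.4 and 24.5 (-4.45 ± 0.56, adjusted p = 0.000719), and DEPP1 at 4198, 2146 and 3841 against 318, 1021 and 368 (-2.70 ± 0.54, adjusted p = 0.00556).

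Less even were PLAT, CAVIN3 and RA_M006_JSM7BED4F. PLAT, the tissue plasminogen activator, stood at 294, 29.6 and 223 against 0, 20.8 and 3.80 (-3.12 ± 0.89, adjusted p = 0.0258), and lost the call without blank 1, blank 3, AngII 1 or AngII 3 (0.0768 to 0.146). CAVIN3, a coat protein of caveolae, stood at 682, 375 and 632 against 171, 135 and 8.97 (-2.81 ± 0.79, adjusted p = 0.0249), and RA_M006_JSM7BED4F at 352, 123 and 357 against 10.2, 76.4 and 0 (-3.33 ± 0.84, adjusted p = 0.0174). Both lost the call without AngII 3 (adjusted p = 0.0745 and 0.0643), and the latter also without AngII 1 (0.0729).

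By mean level over the 6 libraries, the most abundant genes with a symbol were the globins HBA and HBB2, although in the AngII group EEF1A1, and in the blank group FTL, GAPDH and RPS20, stood above HBB2. HBA, the alpha chain, stood at 28283, 38034 and 28772 in the blank and 11071, 17668 and 11827 in the AngII libraries (-1.25 ± 0.38, adjusted p = 0.0349), and lost the call without any library except AngII 2 (adjusted p 0.0531 to 0.184). HBB2, a beta chain, stood at 3599.6, 4537 and 3571 against 8252, 7771 and 8481 (1.07 ± 0.38, adjusted p = 0.0588), with no overlap and no call. The iron store FTL was 6511, 3774 and 6626 against 2010.4, 3967 and 2409 (-1.02 ± 0.45, adjusted p = 0.109). TPT1, YBX1 and RPS29 completed the top 10 with overlapping groups.

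Ranks within a library do not depend on its scale. Each gene was given its percentile among the 1587 tested genes of a library, with 100 as the highest level. The percentiles of the groups did not overlap for 692 genes (43.6%), 338 higher and 354 lower, against 661 genes (41.7%) with rescaled values that did not overlap, 450 higher (28.4%) and 211 lower (13.3%). Among the symbols, 51 of 254 were higher in rank without overlap and 55 lower, shares of 20.1% and 21.7% against 21.3% and 22.3% over all genes. Of the 40 called rises, 35 had ranks without overlap (13.8% of the symbols, against 12.7% of all genes), and VBP1, BSP1, ROMO1, SELENOP and ATP5F1E did not (1.97%, against 1.76%). All 19 called falls had ranks without overlap, ACTA2 among them (7.48%, against 8.19%).

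The largest shifts in rank crossed most of the scale. MYH6 went from percentiles of 7.4, 13.4 and 3.7 to 71.5, 98.6 and 79.0, and MICOS10 from 17.4, 6.6 and 18.3 to 84.0, 94.0 and 85.3. SRL, DBI and ATP5MC3 were the other three with the largest rise. GRO-A dropped from 98.6, 96.8 and 98.6 to 8.0, 18.7 and 1.9, that is from among the highest genes of every blank library to among the lowest of every AngII library. C1H11orf96 went from 92.3, 90.8 and 92.2 to 5.8, 10.0 and 13.6, CCL2 from 76.3, 69.6 and 79.1 to 0.8, 1.1 and 9.4, and TIMP1 from 95.2, 63.1 and 94.4 to 28.9, 1.1 and 14.5. HBA shifted little in rank, from 99.9 in each blank library to 99.5, 99.8 and 99.7 in the AngII libraries, without overlap.

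**Figure D5:**
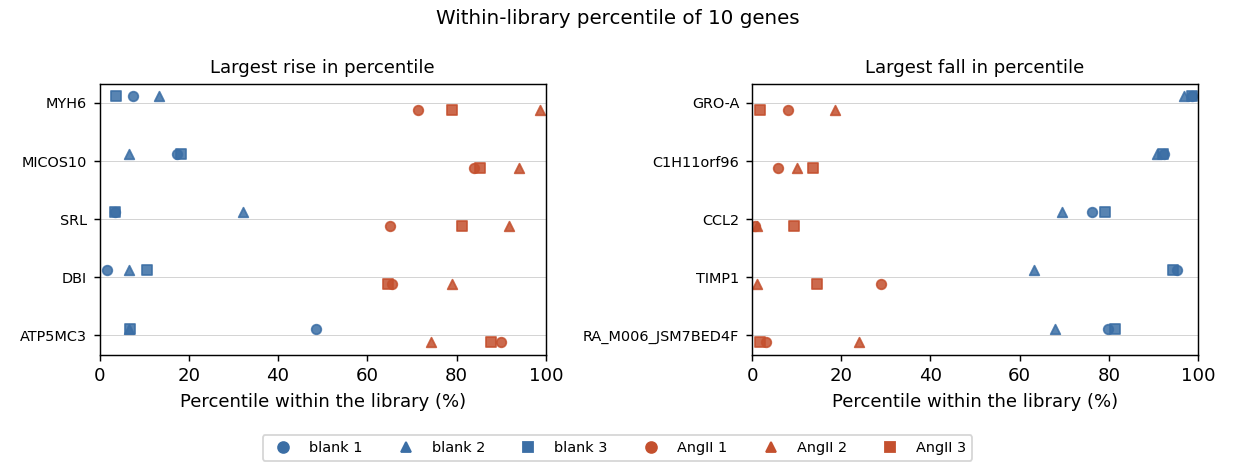
Percentile of 10 genes within each library (100 is the highest of the 1587 tested genes), 1 point per library, for the 5 symbols with the largest rise and the 5 with the largest fall in rank. For GRO-A the blank libraries lie at 96.8 to 98.6 and the AngII libraries at 1.9 to 18.7.

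For genes whose groups did not overlap, the two-sided exact permutation test gave p = 0.1, the smallest that 3 libraries against 3 allow, so the exact test could not reach 0.05 for any single gene. Unadjusted p and no fold threshold could only keep calls. Of the 59 called symbols, 18 kept the call in every alternative that tested them. Those 13 rises were ATP5PO, ATP5MC2, ATP5MG, SLC25A4, MICOS10, CKMT2, DBI, CUNH19orf12, MYH6, SRL, HRC, ENO3 and ANKRD1, and the 5 falls were GRO-A, CCL2, C1H11orf96, WARS1 and GPX3. Of these, ATP5PO, ENO3, ANKRD1, WARS1 and GPX3 reached the FPKM limit in both groups.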

How the data were processed

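RNA of cultured CFs was sequenced (TRIzol, Illumina TruSeq) and the authors deposited a single table of FPKM values per gene, with no counts. Submitters' processing notes name FastQC 0.11.9, Trimmomatic 0.39, HISAT2 2.2.1, featureCounts 2.0.1 and the build OryCun2.0. Samples were grouped from their labels, and 6 of 9 columns entered the comparison. The members and gene lists were chosen with earlier results of these data known. Each column was rescaled to 1000000 without the KEF51 entries and ADORA1-2, and genes whose deposited FPKM reached 1 in 2 or more libraries entered limma 3.58.1 (lmFit, eBayes with trend) in R 4.3.3 on log2(rescaled value + 10), with Benjamini-Hochberg adjustment. The rescaled table and the counts were made with Python 3.11.15 and pandas 2.3.3. The code was tested on simulated data. Depth is unknown in reads, so no counting intervals are given.

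Genes named were the 12 with the highest and 12 with the lowest log2 difference among symbols without overlap, the 5 with the largest rise and fall in rank, tested list members, genes of the study's bench assays and the 10 with the highest level. Called genes outside this rule (among them DEPP1, IL18BP, VBP1, H3-3A, VDAC1, ANKRD1, TRDN, CASQ2, ROMO1 and SELENOP) were named after their values were seen. So were the uncalled genes SAA3 and ATP2A2. Lists covered ATP synthase, respiratory chain, glycolysis, citrate cycle, ribosomal proteins, translation and chaperones, matrix, actin and contractile genes, TGF-β, angiotensin and cGMP, early response, cytokines, cell cycle, and markers of 6 cell types. No gene of the cell cycle list was tested, and CCNA2 is its single listed member. Alternatives changed pseudocount, scaling, filter, libraries in the fit, variance model, replicate block and threshold, and left out each library in turn. The values of 1 called gene are not reported here.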

Additional observations from a re-analysis of the deposited data

Results flagged for a closer look

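On deposited FPKM, 575 of the 1587 tested genes had values without overlap between the groups, and on rescaled values 661 (41.7%) did. Of the 14 entries left out of the comparison, 6 had deposited FPKM without overlap (42.9%), and 8 overlapped. Of the 6, 4 were higher in all AngII than in all blank libraries and 2 were lower, in rows that the comparison does not use. Over all tested genes, rescaled values without overlap were higher in 28.4% and lower in 13.3%, so 4 of 14 entries is no more than a description. KEF51_p12 had a ratio of mean FPKM (AngII over blank) of 2.77, from 1592, 4873 and 3255 in the blank to 10310.1, 10282 and 6346 in the AngII libraries. The ratio was 1.60 for KEF51_p07, 1.54 for KEF51_p11 and 1.48 for ADORA1-2. KEF51_p10 and KEF51_p01 lay lower in all AngII libraries, with ratios of 0.794 and 0.784. These values are deposited FPKM without rescaling, and no test was made.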

How the results depend on the processing

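With a pseudocount of 1 there were 230 calls (151 higher, 79 lower, 39 symbols). Lower calls numbered 53 without rescaling, 203 with median-ratio scaling, 239 with quantile normalization, 250 on ranks, 55 with FPKM of at least 1 in 3 libraries and 200 with LOC100353654 also left out. With only the KEF51 entries left out there were 181 calls (118 higher, 63 lower, 38 symbols) and 430 genes without overlap. A minimum rescaled value of 1 gave 2672 genes without overlap and 3276 on ranks, of 11491 tested. No filter gave 165 calls (111 higher, 54 lower, 28 symbols), with 2700 and 3605 without overlap, of 14158 tested. All 9 libraries in the fit gave 617 calls (394 higher, 223 lower, 100 symbols), quality weights 874 (453, 421 and 147), and unadjusted p 614 (386, 228 and 104). Leaving out each library in turn gave 189 to 475 calls, 118 to 243 higher, 49 to 232 lower, and 30 to 79 symbols, with 687 to 966 genes without overlap in value and 734 to 1016 in rank. Without blank 2 and AngII 2, there were 817 calls (392, 425 and 145), and 1283 and 1304 genes without overlap in value and in rank. Apart from changes of sample, filter or threshold, the cause was not tested. RPS20 (0.14) changed sign to -0.083 with median-ratio scaling, -0.069 with quality weights, -0.11 without LOC100353654 and -0.034 without blank 2 and AngII 2, and ranged from -0.18 (without AngII 1) to 0.36 (without blank 1), with -0.17 without blank 2.

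With the replicate number as a block there were 238 calls, 81 of them lower. Same-numbered libraries did not deviate together (correlations of deviations 0.00421, -0.0344 and -0.0297), and no blank library correlated best with its own number. Such correlations cannot tell whether same-numbered libraries share an animal or culture, so whether the numbers pair the samples stays unknown. The limits are the small fragment numbers of the symbols that could be read, most of all in blank 2, and the share of each library held by the 14 entries left out.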
